A study of Mus musculus with 30 samples.

Results

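Rubcn-knockout dendritic cells were compared with wild-type cells after 4 h with ovalbumin (OVA), a soluble protein antigen. The members of the comparison were 6 of the 30 RNA-seq libraries in the study, chosen by genotype, treatment and time from the labels: 3 Rubcn knockout (KO) and 3 wild-type (WT) libraries. Of 25611 gene rows in the count table, 14808 passed a filter on low counts and were tested. The cells were mouse bone marrow cells differentiated for 6 to 7 days with 200 ng/ml of FLT3L, the cytokine that drives dendritic cell development from marrow progenitors, and KO and WT cells were grown the same way. The other groups used beside them were KO and WT cells left untreated and KO and WT cells given OVA protein for 30 min, with 3 libraries each. The remaining libraries of the study, from cells given apoptotic Jurkat cells, a human T cell line, entered only the shared estimate of the spread between libraries. The dose and form of OVA, the knockout allele, and whether libraries of a group came from separate mice were not given in the sources used here. The p-values therefore measure the spread between these samples, which may be technical.

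Rubicon, the protein encoded by Rubcn, restrains canonical autophagy and endosome maturation through the class III phosphatidylinositol 3-kinase complex, and is required for LC3-associated phagocytosis. In that pathway LC3 is attached to single-membrane phagosomes after an NADPH oxidase produces superoxide at the phagosome, and the cargo is passed to lysosomes. FLT3L cultures hold conventional dendritic cells, which take up and present antigen, and plasmacytoid dendritic cells, which can make large amounts of type I interferon. Type I interferon acts through a complex that holds STAT2 and IRF9 on a promoter element called the ISRE, and thereby raises many antiviral genes in the responding cell.

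Levels are given in CPM, a gene's counts scaled to a common library size by the TMM method, and differences as log2 of KO over WT with a standard error (SE). A gene was called where edgeR's quasi-likelihood test gave a Benjamini-Hochberg adjusted p under 0.05 over all genes tested. Rubcn itself (chr16:32821702-32868366 in mm10, minus strand) was at 71.3, 72.0 and 70.4 CPM in the KO libraries and at 89.8, 90.6 and 92.2 CPM in the WT libraries. The groups did not overlap, and Rubcn was lower in KO by 0.35 on the log2 scale, written log2 -0.35 (SE 0.0474, adjusted p = 4.81e-06). In untreated cells it was at 70.4 to 75.8 CPM in KO and 95.6 to 104.6 CPM in WT. Reads were counted over the whole gene, so these values do not show which exons the allele lacks, and most of the transcript level of the gene was still counted in KO.

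The 6 libraries held 38680894 to 51642601 counts, and the share of counts in their 10 most abundant genes was 5.80% to 6.08%. Of 9 genes shared by dendritic cells, 2 fell (0 with KO replicate 1 or WT replicate 1 left out). Their summed level was 22193 to 23157 CPM in KO and 22974 to 23391 CPM in WT. Levels compared between KO and WT do not test the dendritic cell label itself. Flt3, the receptor for FLT3L, stood at 508, 513 and 509 CPM in KO and 484, 484 and 507 CPM in WT (log2 0.05, adjusted p = 0.368). Of 5 erythroid and megakaryocyte genes 1 fell, with 0 called when KO replicate 2, KO replicate 3 or WT replicate 3 was left out. The globin genes Hba-a1, Hba-a2, Hbb-bs and Hbb-bt had 0 counts, as did the class I genes H2-Q6 and H2-Q7. These genes have close copies, and whether their reads were left out of the counting was not tested, so 0 counts do not show absence. On the first principal component of the 6 libraries, which held 71.9% of the variance, KO and WT lay on opposite sides.

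WT replicate 3 stood apart from the other WT libraries. In it, 68 genes were more than 2-fold above both other WT libraries after 0.5 CPM was added to each value, while each of the other 5 libraries had 0 such genes. Igfbp3, a secreted binder of insulin-like growth factors, was at 0.296, 0.324 and 16.5 CPM in WT replicates 1, 2 and 3. Ctsk, the collagen-degrading protease of osteoclasts, was at 8.64, 8.27 and 53.9 CPM, against 10.8, 10.8 and 10.6 CPM in KO. Sfrp4, a secreted Wnt antagonist, was at 1.35, 1.27 and 25.7 CPM. The 68 genes thus included matrix and bone-resorbing cell genes, and 16 of them were called, all as lower in KO. Results that rest on WT replicate 3 are given below with and without it.

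**Figure D1:**
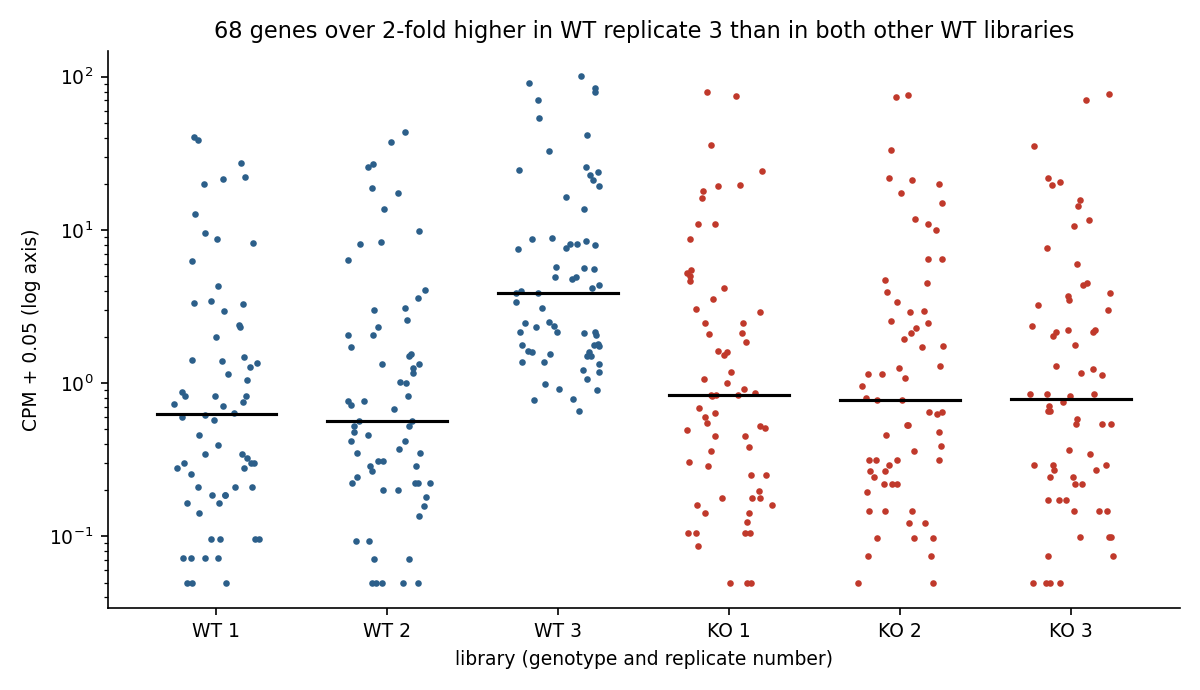
CPM plus 0.05 on a log axis for the 68 genes that stood more than 2-fold above both other WT libraries in WT replicate 3, in each of the 6 libraries given OVA for 4 h (points, genes; line, median). The other 5 libraries sit at similar levels and WT replicate 3 is above them.

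At 4 h of OVA, KO and WT cells differed at many genes, and the differences were mostly small. Of 14808 genes, 1861 were called (12.6%), 921 of them higher in KO (6.22% of genes tested) and 940 lower (6.35%). These shares are the background for each count of list members given below. The median log2 difference was 0.39 among the genes called higher and -0.33 among those called lower, against -0.0021 over all genes. Only 181 genes were both called and at least 2-fold different (1.22%), 81 higher and 100 lower. Without WT replicate 3 there were 174 such genes, and 123 genes were in both sets. The 16 called genes that stood apart in WT replicate 3 were all among the 100 lower. The lower group led among genes with a mean of at least 5 CPM in the higher genotype: 46 were at least 2-fold lower and 14 at least 2-fold higher. Among the 46 were Igfbp3, Ibsp and Acp5, which were high in WT replicate 3 alone and were not called without it. Values of the 3 KO and 3 WT libraries did not overlap for 4914 genes in all (33.2% of genes tested), and for 904 of the 921 higher and 914 of the 940 lower genes called. Genes named below by the size of their change had to show no overlap, so its absence adds no evidence for them. The balance of directions depended on scaling: 49.49% of calls were higher in KO with TMM and 64.47% with scaling to total counts, which moved the median of all genes to 0.03. Leaving out WT replicate 3 gave 1709 calls, leaving out KO replicate 1 gave 1172, and leaving out WT replicate 1 gave 1226. Without WT replicate 3, 384 of the 1861 calls were lost and 232 other genes were called.

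**Figure D2:**
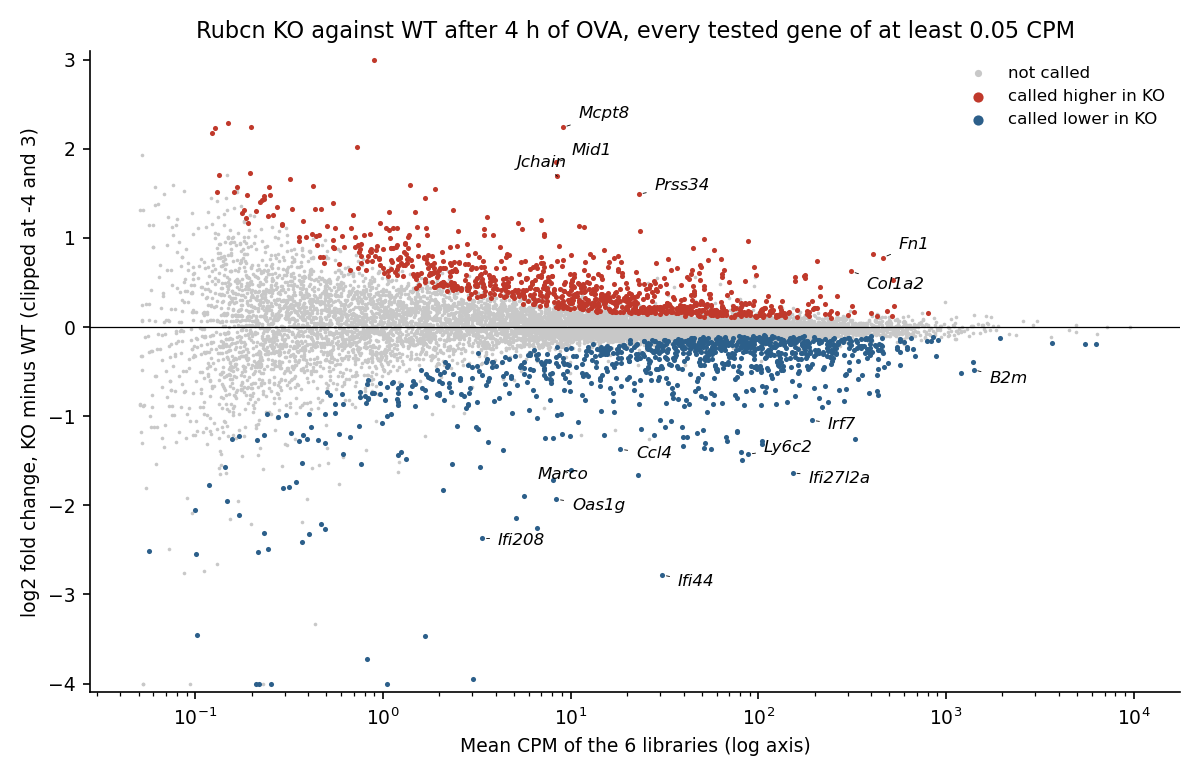
Log2 of KO over WT at 4 h of OVA against mean CPM (log axis) for the genes tested at or above 0.05 CPM (red, called higher in KO; blue, called lower; grey, not called; values beyond the axis drawn at its edge). Among genes above 5 CPM, interferon-induced Ifi44 is the lowest and Mcpt8 the highest, and the points nearest the lower edge are genes of low level, several of them high in WT replicate 3 alone.

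Interferon-induced effector genes were lower in KO almost without exception. Of 51 tested, 50 fell and 0 rose, with a median log2 of -0.85, and 22 fell at least 2-fold; among all genes 6.35% fell. The gene not called, Ifit1bl1, was lower too, at 8.64, 7.89 and 7.97 CPM in KO and 13.1, 11 and 11.2 CPM in WT (log2 -0.52, adjusted p = 0.359). The count stayed at 50 when any of the 6 libraries was left out, and was 51 when the 6 compared libraries were fitted alone. Ifi44l, with 1 count, was not tested.

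The largest fall among genes averaging above 5 CPM over the 6 libraries was that of Ifi44, an interferon-induced protein with antiviral activity (chr3:151730923-151749959 in mm10, minus strand). Its level was 8.05, 7.94 and 7.44 CPM in KO and 53.9, 52.4 and 55.2 CPM in WT, a 6.90-fold difference (log2 -2.78, SE 0.195, adjusted p = 7.28e-11). The libraries of each genotype lay close together and far from the other. Ifi27l2a, a small interferon-induced membrane protein, was at 69.2, 82.3 and 72.1 CPM in KO and 224, 246 and 224 CPM in WT (log2 -1.63, SE 0.0947, adjusted p = 9.99e-13). Ly6a, the interferon-inducible surface antigen Sca-1, was at 177, 207 and 197 CPM in KO and 440.4, 444 and 499.6 CPM in WT (log2 -1.25, SE 0.0772, adjusted p = 3.57e-12). In each of these genes the highest KO library was below the lowest WT library by more than the range within either group.

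The oligoadenylate synthetases make a second messenger that activates RNase L against viral RNA, and all members named here fell. Oas1g was at 3.05, 3.92 and 3.56 CPM in KO and 12.9, 14.3 and 12.7 CPM in WT (log2 -1.93, SE 0.140, adjusted p = 9.48e-11). Oas1a was at 23.8, 25.1 and 22.4 CPM in KO and 54.3, 56.9 and 57.0 CPM in WT (log2 -1.24, SE 0.111, adjusted p = 6.04e-09). Oas3 was at 39.5, 42.5 and 36.8 CPM in KO and 91.9, 94.7 and 101 CPM in WT (log2 -1.28, SE 0.149, adjusted p = 5.7e-07). Oas2 fell by 1.23 and Oasl1 by 1.66 on the log2 scale. Genes of the Oas1, Ifi200, Gbp, Irg, Ifit and H2 families have close copies, reads of which the counting may have divided between members, so single members of these families are uncertain.

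Further effectors fell too. Rsad2, which encodes the antiviral enzyme viperin, was at 46.9, 39.7 and 42.1 CPM in KO and 133, 126 and 103 CPM in WT (log2 -1.49, SE 0.391, adjusted p = 0.01). Isg15, a ubiquitin-like modifier, was at 29.7, 29.2 and 27.3 CPM in KO and 74.8, 76.7 and 69.0 CPM in WT (log2 -1.35). The RNA-binding Ifit1, Ifit2 and Ifit3 fell by 1.37, 1.27 and 1.33 on the log2 scale. Usp18, which removes Isg15 and damps receptor signalling, fell by 1.17, and the antiviral GTPase Mx1 by 0.79. Smaller falls were seen for Lgals3bp (log2 -0.70), Ifitm3, which blocks viral entry (log2 -0.52), and Ly6e (log2 -0.39).

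**Figure D3:**
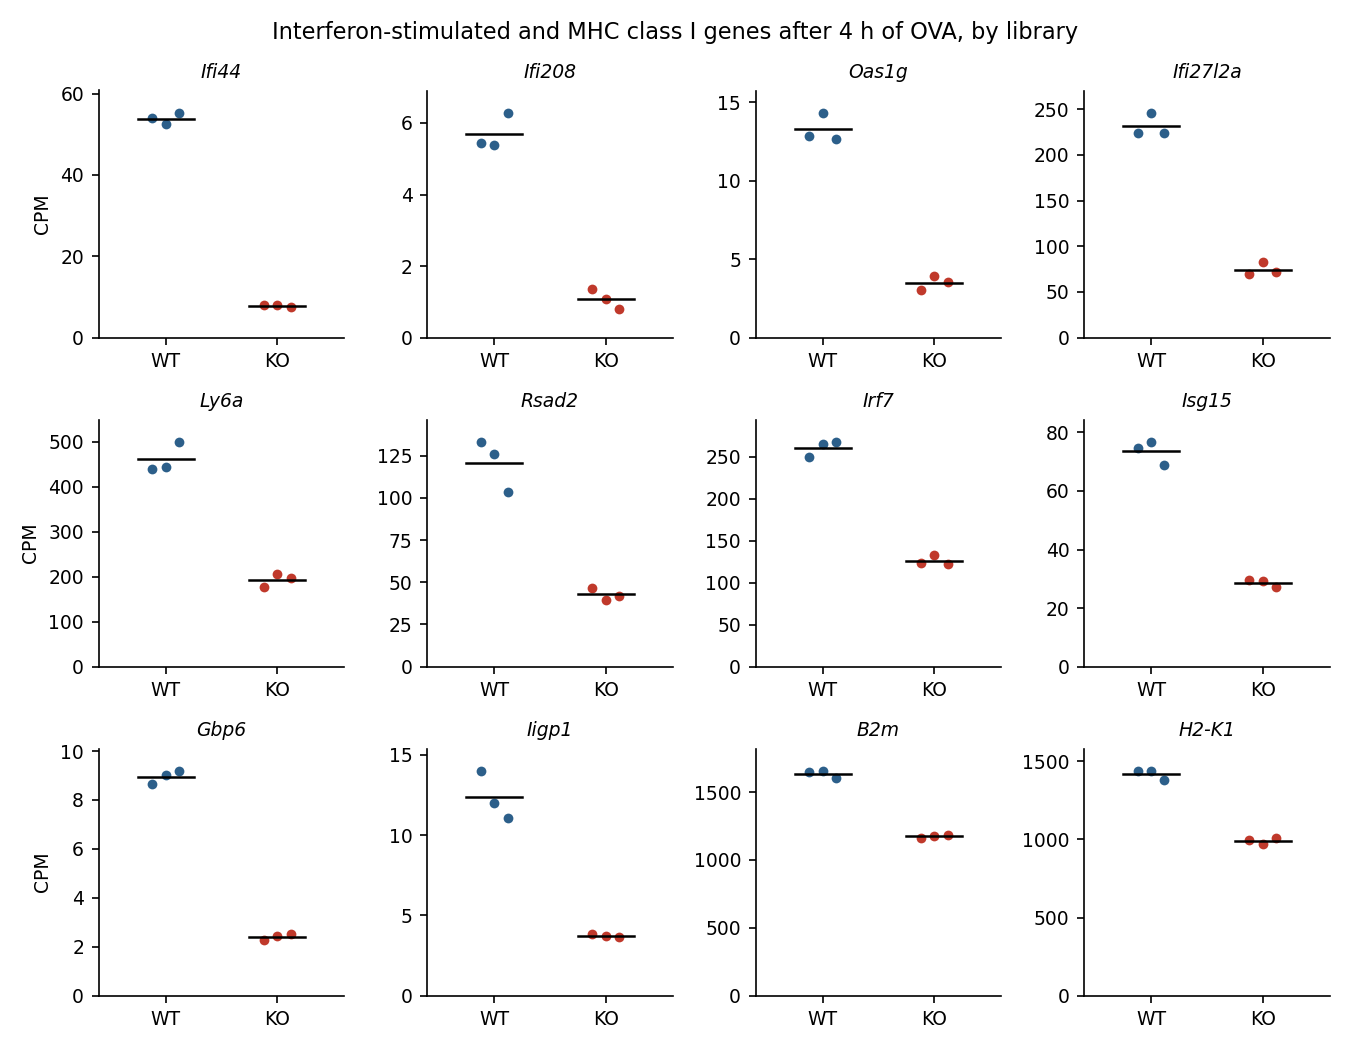
CPM by library for 12 interferon-related genes at 4 h of OVA (blue, WT; red, KO; line, group mean of 3 libraries). In each panel all 3 KO libraries are below all 3 WT libraries, from Ifi44 at 7.44 to 8.05 CPM against 52.4 to 55.2 CPM to B2m at 1163 to 1183 CPM against 1607 to 1656 CPM.

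Sequences just upstream of genes that fell are shown because they carry the core of the ISRE. The windows are from RefSeq (GRCm38.p6), 5′ to 3′ on the gene's own strand, and end at the base before the annotated start. Capitals mark matches to GAAANNGAAA, which was searched on both strands in 250 bases before to 50 bases after each start. Oas1g is on the minus strand with its window at chr5:120887614-120887763, Oas1a at chr5:120907526-120907675, Oas3 at chr5:120777660-120777809, and Phf11b at chr14:59341331-59341480, all on the minus strand.
Oas1g: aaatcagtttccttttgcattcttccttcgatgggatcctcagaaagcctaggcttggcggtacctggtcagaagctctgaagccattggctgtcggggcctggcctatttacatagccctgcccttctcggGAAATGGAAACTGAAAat
Oas1a: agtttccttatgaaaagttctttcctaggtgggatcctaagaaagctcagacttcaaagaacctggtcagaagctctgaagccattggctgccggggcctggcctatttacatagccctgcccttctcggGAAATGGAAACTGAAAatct
Oas3: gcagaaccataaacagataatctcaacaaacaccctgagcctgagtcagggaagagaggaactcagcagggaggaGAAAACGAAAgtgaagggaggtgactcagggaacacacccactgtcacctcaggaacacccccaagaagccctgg
Phf11b: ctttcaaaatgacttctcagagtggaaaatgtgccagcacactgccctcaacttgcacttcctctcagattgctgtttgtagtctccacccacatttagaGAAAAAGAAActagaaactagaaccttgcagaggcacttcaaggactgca
Oas1g and Oas1a each hold 2 overlapping matches, the nearer ending 3 and 5 bases before the start. Oas3 and Phf11b each hold 1 match, 66 and 41 bases before the start. Phf11b, a PHD finger gene, fell by 0.87 on the log2 scale. The core was present in 3.44% of all 32851 promoter windows. The next shares are of genes, counted where any window of the gene held the core, so their unit differs. Of the 14808 genes tested, 11598 had a window, and 457 of these held the core (3.94%). Of the 940 genes called lower, 758 had a window, and 98 of these held it (12.9%). A match describes the letters of the window and is not evidence of binding.

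Interferon signalling genes fell in part. Of 20 tested, 8 fell and 1 rose (median log2 -0.10). Irf7, the factor that amplifies type I interferon production, was at 123, 133 and 123 CPM in KO and 249.5, 266 and 268 CPM in WT (log2 -1.05, SE 0.150, adjusted p = 1.14e-05). The KO and WT libraries of Irf7 were fully separate. Stat2 fell by 0.38, Irf9 by 0.34 and Irf1 by 0.26 on the log2 scale. The exception in direction was Ifngr1, a chain of the interferon-gamma receptor, at 342.5, 338 and 346 CPM in KO and 300.0, 289.8 and 284 CPM in WT (log2 0.23, adjusted p = 4.31e-05). The type I receptor genes were not called: Ifnar1 had log2 -0.10 (adjusted p = 0.0737) and Ifnar2 log2 -0.04. Neither was Irf3 (log2 -0.01), which starts interferon transcription, nor Irf8 (log2 -0.07, adjusted p = 0.312), a lineage factor of dendritic cells. Ifnb1, the gene for interferon-beta, was near the limit of detection, at 0 to 0.0735 CPM in KO and 0.0741 to 0.237 CPM in WT (adjusted p = 0.175). With WT replicate 1 left out, 5 of the signalling genes were called lower.

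Sensors of nucleic acid fell as a group of 18 of 27 tested, with 0 higher and a median log2 of -0.48. Ifi208, of the DNA-binding Ifi200 family, was at 1.36, 1.08 and 0.804 CPM in KO and 5.43, 5.40 and 6.28 CPM in WT (log2 -2.37, SE 0.231, adjusted p = 3.18e-08). Ifi213, of the same family, was at 1.78, 2.19 and 1.71 CPM in KO and 8.94, 8.38 and 7.78 CPM in WT (log2 -2.14, adjusted p = 2.12e-07). For both genes every KO library was below every WT library, which was a condition for naming them. Ifi209, Ifi211 and Ifi207 fell by 1.31, 0.86 and 0.85 on the log2 scale. Zbp1, a sensor of left-handed nucleic acid, fell by 1.21. The RNA helicases Ifih1, Ddx58 and Dhx58 (MDA5, RIG-I and LGP2) fell by 0.86, 0.76 and 0.70. Mb21d1, which encodes cGAS, fell by 0.38, as did the endosomal RNA receptor gene Tlr7. The adaptors were not called, with log2 0.02 for Tmem173 (STING) and 0.11 for Mavs. Tlr9, the endosomal DNA receptor of plasmacytoid cells, had log2 -0.23 (adjusted p = 0.0565), and Tlr4 log2 0.02.

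Guanylate-binding proteins and immunity-related GTPases, which attack vacuoles holding pathogens, fell in 14 of 17 tested (0 higher, median log2 -0.74). Gbp6 was at 2.28, 2.45 and 2.51 CPM in KO and 8.64, 9.02 and 9.19 CPM in WT (log2 -1.90, SE 0.234, adjusted p = 1.34e-06). Iigp1 was at 3.86, 3.73 and 3.66 CPM in KO and 14, 12 and 11.1 CPM in WT (log2 -1.71, SE 0.286, adjusted p = 9.62e-05). Each WT library was more than 2-fold above each KO library in these genes. Tgtp2, Ifi47, Gbp4, Irgm2 and Irgm1 fell by 1.04, 0.87, 0.74, 0.72 and 0.65 on the log2 scale.

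The interferon genes differed before OVA was added as well. In untreated cells 1477 genes were called (9.97%), and after 30 min of OVA 1834 were (12.4%). Those comparisons use other libraries than the one at 4 h. At 30 min, KO replicate 3 held only 9734778 counts, and no 30 min result was repeated without it. Of the 51 effectors, 47 were called lower in untreated cells (median log2 -0.80) and 41 at 30 min. Also called lower in untreated cells were 15 of 27 nucleic acid sensors (median log2 -0.36) and 11 of 17 GTPase genes (median log2 -0.57). Ifi44 was at 2.93 CPM ± 0.225 (SD, n = 3) in untreated KO and 25.7 CPM ± 3.99 (SD, n = 3) in untreated WT. The 4 h difference minus the untreated difference passed the test for 0 of the 51 effectors, where the smallest adjusted p was 0.58 and 2 had an unadjusted p under 0.05. Genes called at 4 h and in untreated cells numbered 878, which is 47.2% of the 4 h list and 59.4% of the untreated list. Of these, 486 were higher at both, 388 were lower at both and 4 were opposite. With 30 min, 881 genes were shared (47.3% of the 4 h list and 48.0% of the 30 min list), 878 of them in the same direction.

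Marker genes of plasmacytoid dendritic cells, the cells most specialised in making interferon, differed in both directions. Of 16 tested, 5 fell and 3 rose, and their summed level was 2880 to 2993 CPM in KO and 3198 to 3264 CPM in WT. Siglech, a surface lectin of these cells, was at 590.1, 618 and 617 CPM in KO and 739, 703 and 726 CPM in WT (log2 -0.25, adjusted p = 0.00315). Dntt, the template-independent DNA polymerase, went the other way, at 59.6, 62.4 and 61.0 CPM in KO and 38.6, 39.3 and 36.7 CPM in WT (log2 0.68, adjusted p = 8.19e-10). Hepacam2 and Cox6a2 rose by 0.39 and 0.30, and Rpgrip1 fell by 0.36 on the log2 scale. With KO replicate 1 left out, 2 of these markers were called lower in place of 5. In RNA from whole cultures, fewer cells of a type and less RNA per cell cannot be told apart, and the part of these markers in the interferon result was not tested.

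The antigen presentation machinery of MHC class I was lower in 13 of 21 genes tested, with 0 higher (median log2 -0.26). Untreated cells had 11 of these genes lower and 0 higher (median log2 -0.18). By edgeR's test the 4 h difference departed from the untreated one for 0 of them (smallest adjusted p = 0.64). H2-K1, a classical class I heavy chain, was at 994, 971 and 1011 CPM in KO and 1437, 1438 and 1382 CPM in WT (log2 -0.52, SE 0.0370, adjusted p = 8.67e-11). B2m, the light chain shared by class I molecules, was at 1163, 1177 and 1183 CPM in KO and 1649, 1656 and 1607 CPM in WT (log2 -0.48, SE 0.051, adjusted p = 1.35e-07). Nlrc5, the transactivator of class I genes, was at 117, 118 and 111 CPM in KO and 197, 199 and 197 CPM in WT (log2 -0.78, adjusted p = 2.46e-06). These 3 genes had no overlap between genotypes, which was a condition for naming B2m, and a narrow range within each. H2-Q4 and H2-D1 fell by 0.70 and 0.45 on the log2 scale. The peptide transporter gene Tap1, the proteasome activator Psme2 and the loading factor Tapbp fell by 0.31, 0.30 and 0.28. Tap2 (log2 -0.08) and the immunoproteasome subunit Psmb8 (log2 -0.11, adjusted p = 0.0671) were not called.

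Genes for trafficking in cross-presentation, by which exogenous antigen such as OVA reaches class I, were called in a share near the 12.6% of all genes: of 17 tested, 1 rose and 1 fell, and with KO replicate 1 or WT replicate 2 left out 0 were called in either direction. Sec22b, which moves endoplasmic reticulum components to phagosomes, had log2 -0.03, and Wdfy4, needed by conventional type 1 dendritic cells for this route, log2 0.02. Of 14 MHC class II genes, 1 rose and 0 fell. That gene, H2-DMb2, a chain of the peptide-exchange factor, was at 84.4, 84.5 and 86.7 CPM in KO and 67.2, 69.9 and 69.5 CPM in WT (log2 0.31, adjusted p = 9.96e-06). The invariant chain gene Cd74 had log2 0.00, and the chains H2-Aa and H2-Ab1 log2 -0.08 and -0.05. Ciita, the class II transactivator, had log2 0.11 (adjusted p = 0.099).

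Maturation and NF-kB genes were lower in KO at 4 h. Of 28 genes that mark activated or migrating dendritic cells, 16 fell and 0 rose, with a median log2 of -0.46, against 8 lower in untreated cells with a median of -0.12. Of 25 NF-kB target and pathway genes, 16 fell and 0 rose, with a median log2 of -0.25, against 3 lower in untreated cells with a median of -0.09. The difference between 4 h and untreated cells had an unadjusted p under 0.05 for 8 of the maturation genes and 11 of the NF-kB genes, and among all genes for 1098 of 14808. After adjustment the smallest p was 0.18 in the maturation list. In the NF-kB list it was 0.056, for Nfkbia.

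Cd83, a surface marker of mature dendritic cells that stabilises MHC class II, was at 158, 154 and 164 CPM in KO and 246, 213 and 192.5 CPM in WT (log2 -0.45, SE 0.0713, adjusted p = 4.77e-05). In untreated cells its log2 was -0.03 (adjusted p = 0.85). Ccr7, the receptor that guides dendritic cells to lymph nodes, was at 116, 112 and 113 CPM in KO and 166, 160.2 and 148 CPM in WT (log2 -0.48). The WT libraries of both genes varied among themselves, with replicate 3 the lowest and still above every KO library. Icam1, an adhesion molecule of the T cell synapse, was at 161, 146 and 157 CPM in KO and 226, 220.2 and 198 CPM in WT (log2 -0.47). Cd40, the receptor for T cell help, was at 39.7, 33.0 and 36.3 CPM in KO and 78.7, 73.8 and 59.5 CPM in WT (log2 -0.96, adjusted p = 0.00913). Ccl22, a chemokine of mature cells, fell by 0.90, and Serpinb6b, Marcksl1 and Cacnb3 fell by 0.57, 0.54 and 0.51 on the log2 scale. The costimulatory genes Cd80 (log2 -0.05, adjusted p = 0.771) and Cd86 (log2 -0.14, adjusted p = 0.218) were not called.

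Nfkbia, which encodes the inhibitor IkB-alpha and is itself induced by NF-kB, was at 157, 144 and 159.8 CPM in KO and 217.5, 217 and 192 CPM in WT (log2 -0.44, SE 0.0515, adjusted p = 5.7e-07). In untreated cells its log2 was -0.08 (adjusted p = 0.45). Tnfaip3, the deubiquitinase A20 that ends NF-kB signalling, was at 86.7, 81.5 and 87.0 CPM in KO and 129.7, 121 and 113 CPM in WT (log2 -0.51, adjusted p = 1.97e-06). Neither gene overlapped between genotypes. The subunit gene Relb fell by 0.48, and Ikbke, Birc3 and Tnip1 fell by 0.37, 0.36 and 0.35 on the log2 scale. The subunit genes Nfkb1 (log2 -0.09) and Rela (log2 -0.07) were not called.

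The windows upstream of Nfkbia (chr12:55492648-55492797) and Tnfaip3 (chr10:19015411-19015560), both on the minus strand of GRCm38.p6 in RefSeq, are shown because they hold matches to the NF-kB motif, marked in capitals.
Nfkbia: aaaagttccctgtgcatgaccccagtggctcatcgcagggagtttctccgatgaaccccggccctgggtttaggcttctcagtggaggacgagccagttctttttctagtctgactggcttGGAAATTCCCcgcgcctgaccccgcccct
Tnfaip3: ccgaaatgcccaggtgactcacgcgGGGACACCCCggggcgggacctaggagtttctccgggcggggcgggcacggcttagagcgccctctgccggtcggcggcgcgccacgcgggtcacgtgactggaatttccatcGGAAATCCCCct
Nfkbia has 1 match, 20 bases before the start. Tnfaip3 has 2 matches on opposite strands, the nearer 3 bases before the start. The motif occurred on either strand in 4.51% of all promoter windows. Counted by gene, it occurred in 742 of the 11598 genes tested that had a window (6.40%). It occurred in 94 of the 758 genes called lower that had a window (12.4%). Of the 25 NF-kB genes, 21 had a window and 9 of these held the motif (42.9%). The list was made of known targets, so that share is not independent of the motif.

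Among 34 cytokine and chemokine genes, 13 fell and 3 rose (median log2 -0.36), against 3 lower and 7 higher in untreated cells (median log2 -0.11). The difference between conditions had an unadjusted p under 0.05 for 10 of the 34 genes. It passed adjustment for 0, with 0.18 the smallest adjusted p. Ccl4, which attracts T cells and monocytes, was at 11.8, 8.97 and 9.78 CPM in KO and 29.4, 29.8 and 20.9 CPM in WT (log2 -1.37, SE 0.171, adjusted p = 1.54e-06). In untreated cells Ccl4 averaged 2.65 CPM ± 0.393 (SD, n = 3) in KO and 3.03 CPM ± 0.238 (SD, n = 3) in WT. Tnf was at 40.1, 34.3 and 37.6 CPM in KO and 61.6, 60.9 and 48.5 CPM in WT (log2 -0.61, SE 0.091, adjusted p = 2.16e-05). WT replicate 3 was the lowest WT library for both genes and lay above all KO libraries. Ccl5, another chemokine for T cells, was at 96.7, 90.2 and 93.1 CPM in KO and 159.8, 158.5 and 140.2 CPM in WT (log2 -0.71, SE 0.0667, adjusted p = 1.68e-08). Cxcl2, a neutrophil attractant, and Il15, which sustains natural killer cells, fell by 0.82 and 0.70 on the log2 scale.

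Some cytokine genes went up or were not called. Csf1, the macrophage growth factor, was at 66.1, 62.1 and 60.1 CPM in KO and 49.5, 48.9 and 46.9 CPM in WT (log2 0.38, adjusted p = 0.00022). Il12a, a subunit of interleukin 12, rose by 0.38 on the log2 scale (adjusted p = 0.000278). Il12b, which encodes the other subunit, had log2 -0.21 (adjusted p = 0.727), Il1b log2 -0.24 (adjusted p = 0.336) and Il6 log2 -0.67 (adjusted p = 0.57). Acod1, the enzyme that makes itaconate, was at 48.8, 41.3 and 51.1 CPM in KO and 119, 117 and 83.5 CPM in WT (log2 -1.18, adjusted p = 0.00655). It averaged 0.780 CPM in untreated KO and 1.53 CPM in untreated WT. Of 11 inflammatory enzyme genes, 4 fell and 0 rose, and 2 fell with KO replicate 2 left out.

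Immediate early genes, which respond within minutes to many stimuli, fell in 9 of 22 and rose in 2. Among all genes tested 6.35% fell and 6.22% rose. Egr1 was at 36.3, 26.8 and 27.3 CPM in KO and 61.0, 54.3 and 50 CPM in WT (log2 -0.86, adjusted p = 2.13e-07). Fosb was at 2.22, 1.90 and 2.15 CPM in KO and 5.97, 4.90 and 4.61 CPM in WT (log2 -1.29, adjusted p = 1.61e-07). Both transcription factor genes were lower in every KO library. Egr3, Zfp36, Junb and Nr4a1 fell by 0.57, 0.39, 0.34 and 0.28 on the log2 scale. The 2 rises were each lost when some single libraries were left out: 0 genes rose with KO replicate 2, KO replicate 3 or WT replicate 1 left out.

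**Figure D4:**
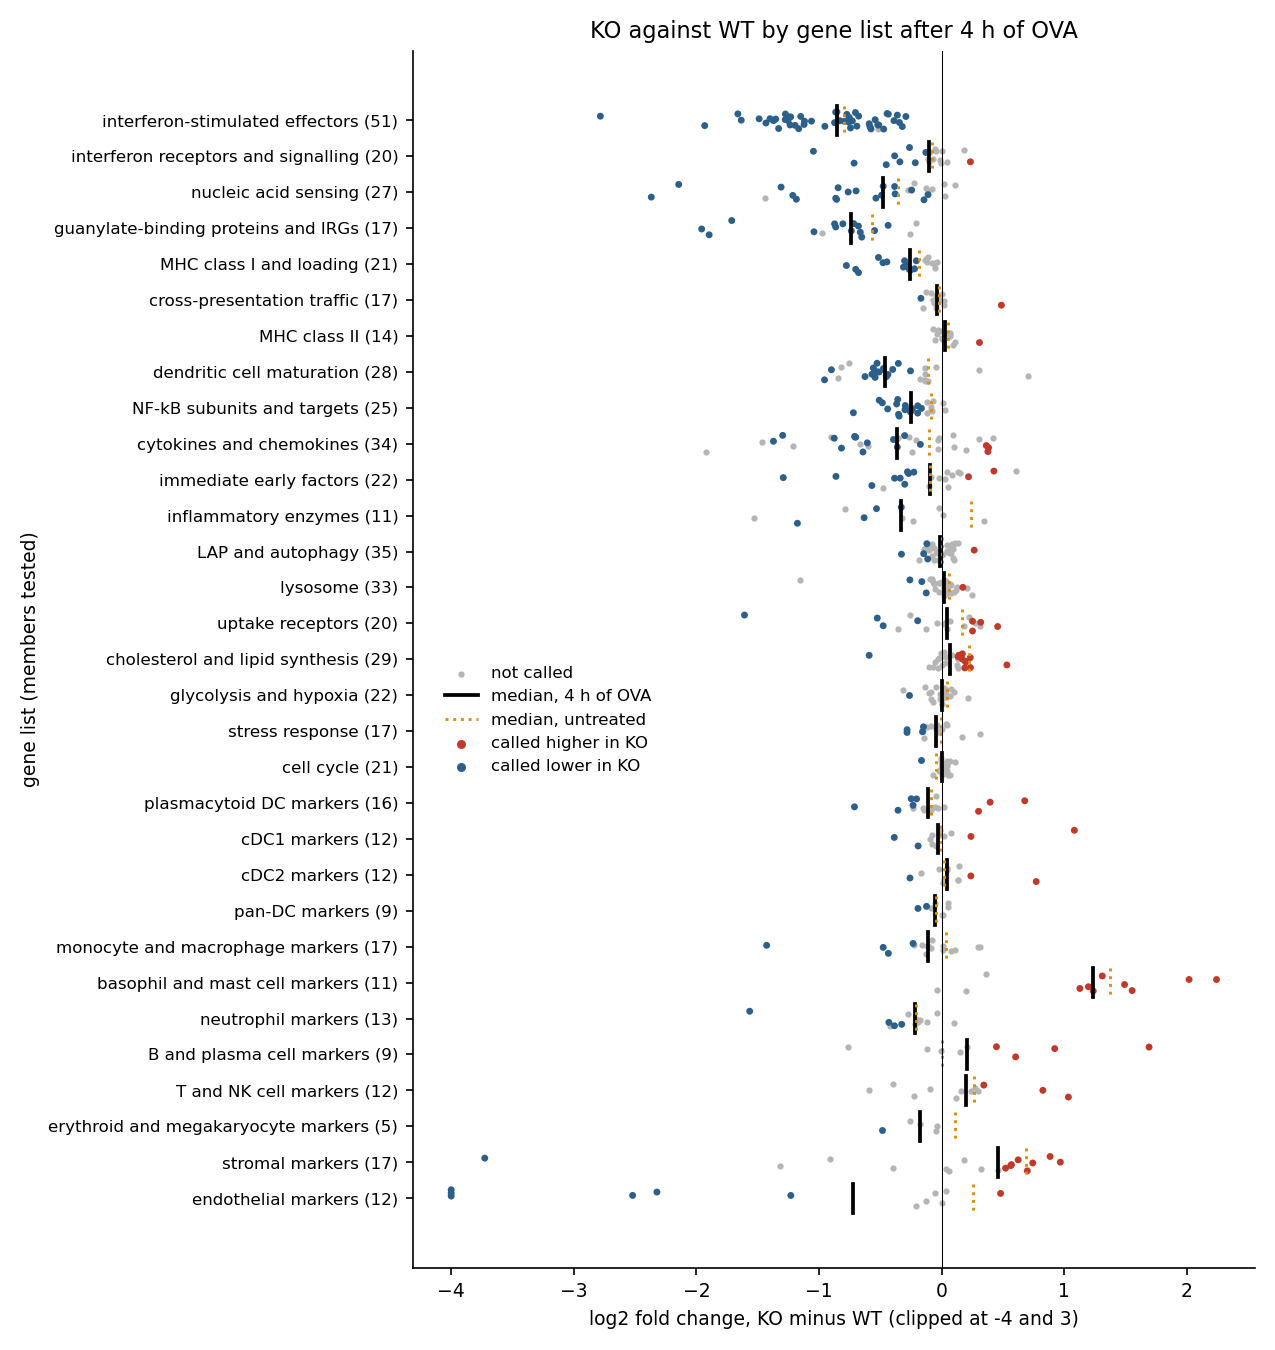
Log2 of KO over WT at 4 h of OVA for each tested member of 31 gene lists (points; values beyond the axis drawn at its edge), with the list median at 4 h (black bar) and in untreated cells (dotted bar). The interferon, nucleic acid sensing and GTPase lists lie left of 0 in both conditions, the maturation and NF-kB lists lie further left at 4 h than untreated, and the basophil and mast cell list lies to the right.

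Very few genes passed the test for a genotype difference that was itself different at 4 h. The 4 h difference departed from the untreated difference for 6 genes (0.0405% of genes tested) and from the 30 min difference for 2 (0.0135%). An unadjusted p under 0.05 was found for 1098 and 1352 genes, where 740 would be expected with no departure at any gene. With 3 libraries per group, a gene that did not pass is not shown to be unchanged. DESeq2 called 25 and 40. All 6 had a more negative KO minus WT difference at 4 h. Mmp14, the membrane-type metalloproteinase that cleaves collagen (chr14:54431598-54442456 in mm10, plus strand), changed sides. At 4 h it was at 111, 101 and 104 CPM in KO and 119, 127 and 133 CPM in WT (log2 -0.26, adjusted p = 0.00567). In untreated cells it was at 59.9, 54.9 and 55.6 CPM in KO and 40.3, 39.9 and 41.6 CPM in WT (log2 0.48, adjusted p = 1.2e-05). At 30 min it was at 53.5, 71.6 and 64.7 CPM in KO and 50.4, 49.7 and 51.4 CPM in WT (log2 0.32). The groups did not overlap in any of the 3 conditions, with KO above WT in 2 of them and below it at 4 h. The difference of differences was -0.74 against untreated (SE 0.0927, adjusted p = 0.000149) and -0.58 against 30 min (SE 0.0935, adjusted p = 0.00904).

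Ptges, the inducible prostaglandin E synthase, also changed sides, at lower levels. At 4 h it was at 1.97, 1.64 and 1.68 CPM in KO and 2.62, 2.85 and 2.78 CPM in WT (log2 -0.63, adjusted p = 0.0108), a call that was lost with KO replicate 2 left out (log2 -0.58). In untreated cells it was at 1.2, 1.28 and 0.942 CPM in KO and 0.401, 0.647 and 0.531 CPM in WT (log2 1.11). At 30 min its log2 was 1.14. The difference of differences against untreated, -1.74 (SE 0.293, adjusted p = 0.00821), was no longer called with untreated KO replicate 2 or untreated WT replicate 1 left out.

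Rasgef1b, a Ras exchange factor induced by Toll-like receptor ligands, was called lower in KO at 4 h and was not called in untreated cells. It was at 63.4, 57.3 and 65.3 CPM in KO and 96.7, 93.9 and 84.6 CPM in WT at 4 h (log2 -0.56, adjusted p = 8.96e-07). Untreated cells had 40.2, 34.3 and 35.4 CPM in KO and 36.0, 32.8 and 32.7 CPM in WT (log2 0.12, adjusted p = 0.38). The groups overlapped in untreated cells and were separate at 4 h. Sod2, the mitochondrial superoxide dismutase, was at 80.8, 79.9 and 82.0 CPM in KO and 96.7, 98.0 and 89.2 CPM in WT at 4 h (log2 -0.23, adjusted p = 5.78e-05). In untreated cells it was at 56.3, 55.3 and 54.1 CPM in KO and 52.8, 50.7 and 49.9 CPM in WT (log2 0.11, adjusted p = 0.056). The differences of differences were -0.68 for Rasgef1b (SE 0.0985, adjusted p = 0.00127) and -0.34 for Sod2 (SE 0.0523, adjusted p = 0.00266). Mmp14, Rasgef1b and Sod2 passed this test with any of the 12 libraries left out.

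Ehd1, which recycles endosomes, and Sdc4, a heparan sulphate proteoglycan, completed the 6. Ehd1 was at 109.5, 104 and 113 CPM in KO and 151, 153 and 133 CPM in WT at 4 h (log2 -0.42, adjusted p = 2.02e-06), with a log2 of 0.00 in untreated cells. Sdc4 was at 83.4, 81.2 and 85.8 CPM in KO and 110.3, 113 and 98.9 CPM in WT at 4 h (log2 -0.36, adjusted p = 2.02e-06), with a log2 of -0.02 in untreated cells. The genotypes were separate at 4 h for both genes. Their differences of differences were -0.42 (SE 0.0771, adjusted p = 0.022) and -0.34 (SE 0.0655, adjusted p = 0.0342), and several left-out libraries ended these calls. With WT replicate 3 left out, 15 genes passed, among them Cd83, Nfkbia, Cd14, Ccl3 and Ets2.

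**Figure D5:**
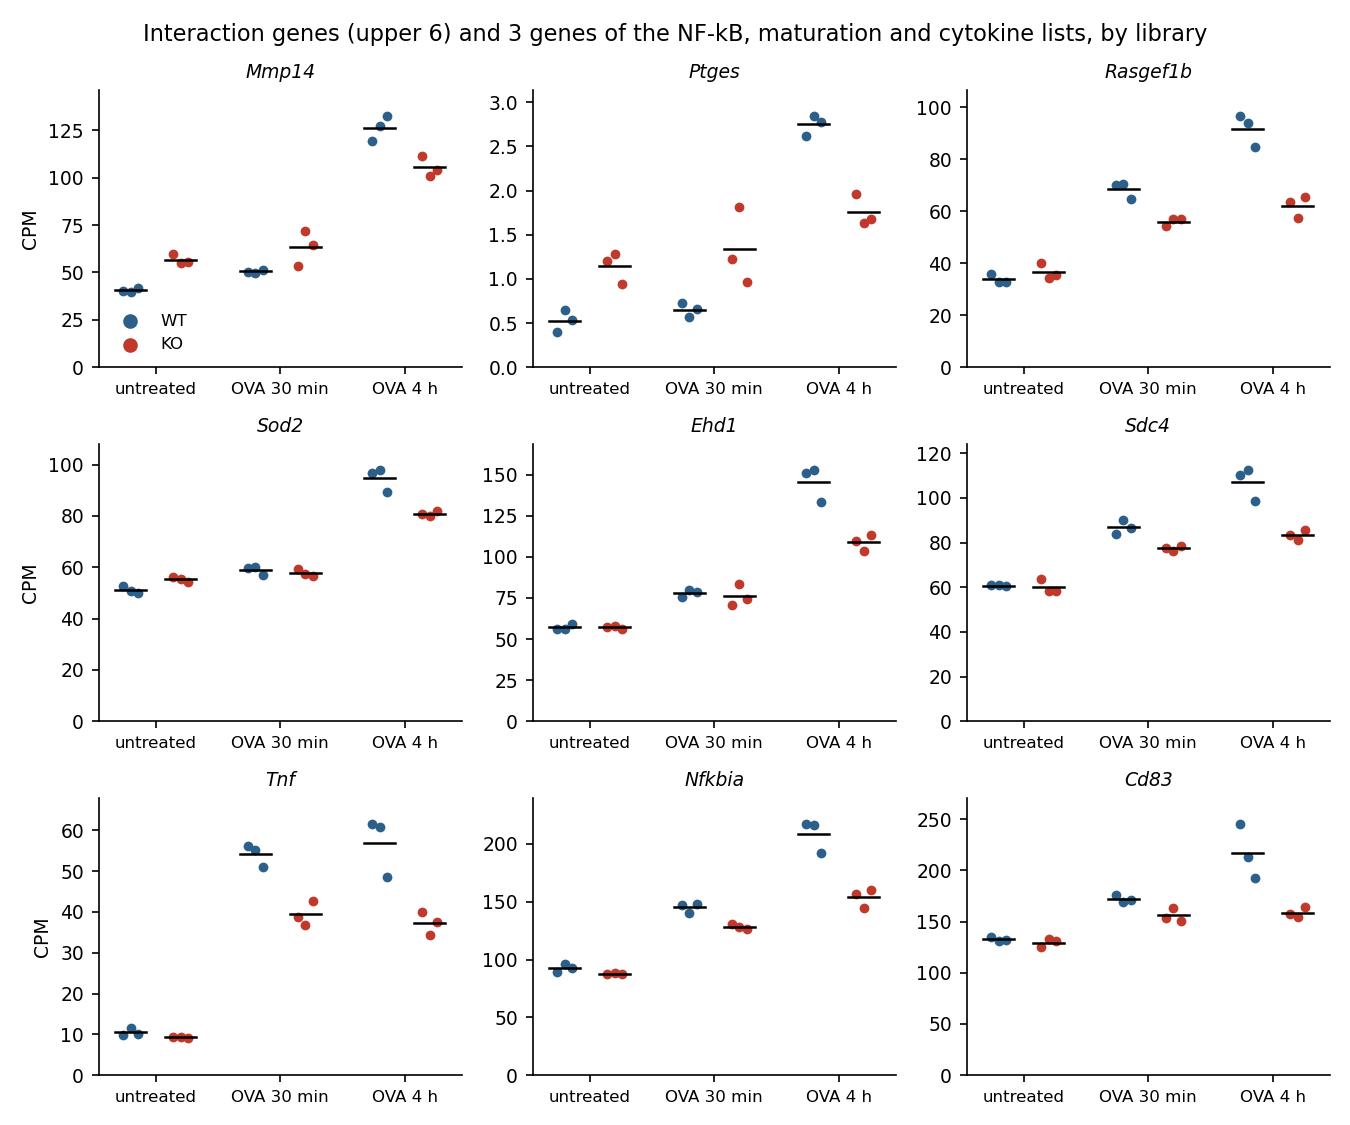
CPM by library for 9 genes in untreated cells, after 30 min of OVA and after 4 h of OVA (blue, WT; red, KO; bar, mean of 3 libraries). Mmp14 and Ptges are higher in KO before 4 h and lower at 4 h, and the other genes lie close together in untreated cells and apart at 4 h.

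Genes of LC3-associated phagocytosis and autophagy, the pathway Rubicon acts in, showed few differences. Of 35 tested, 1 rose and 4 fell (median log2 -0.02), a share near that of all genes. Cybb, the catalytic subunit of the phagocyte NADPH oxidase to which Rubicon binds, was at 767, 783 and 814 CPM in KO and 1042, 997 and 929.7 CPM in WT (log2 -0.33, SE 0.0657, adjusted p = 0.00078). All KO libraries were below all WT libraries. The other called genes, Sqstm1 (log2 -0.15), Ncf1 (log2 -0.12), Uvrag (log2 -0.11) and Map1lc3a (log2 0.26), each lost the call when some single library was left out, and 1 to 2 genes were then called lower and 0 to 1 higher. The core kinase complex was not called, with log2 0.01 for Becn1 and -0.01 for Pik3c3. Nor were the LC3 conjugation genes Atg5 (log2 -0.08) and Atg16l1 (log2 -0.04). Of 33 lysosomal genes, 1 rose and 3 fell: Gusb (log2 0.17) and Scarb2 (log2 -0.16) kept their calls with any library left out, while Ctsl lost it without KO replicate 2 or WT replicate 3, and Npc2 without each of KO replicates 1, 2 and 3 and WT replicates 1 and 2.

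Uptake receptors went both ways, with 4 of 20 higher and 4 lower, against 6.22% and 6.35% of all genes tested. Marco, a scavenger receptor for bacteria and particles, was at 4.83, 4.42 and 5.66 CPM in KO and 16.7, 17.3 and 11.6 CPM in WT (log2 -1.61, SE 0.184, adjusted p = 4.07e-07). Its untreated mean was 0.290 CPM in KO and 0.664 CPM in WT. The high-affinity Fc receptor gene Fcgr1 fell by 0.48 and the signalling chain Fcer1g by 0.20, while Fcgr3, the inhibitory Fcgr2b and the phosphatidylserine receptor Havcr2 rose by 0.46, 0.25 and 0.25 on the log2 scale.

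Lipid synthesis genes leaned higher. Of 29 cholesterol and lipid genes, 10 rose and 1 fell (median log2 0.07), against 21 higher and 0 lower in untreated cells (median log2 0.22). The count of rises was 5 with KO replicate 3 or WT replicate 1 left out and 6 without KO replicate 1. Scd2, a fatty acid desaturase, was at 593, 614 and 634.5 CPM in KO and 445, 419 and 411 CPM in WT (log2 0.53, SE 0.0544, adjusted p = 7.37e-08). Its paralogue Scd1 was at 9.26, 9.67 and 10.3 CPM in KO and 4.83, 3.91 and 5.33 CPM in WT (log2 1.05, adjusted p = 1.28e-07). Both desaturases were higher in every KO library, which was a condition for naming them. Srebf1, a master factor of lipid synthesis, and the sterol exporter Abcg1 rose by 0.19 and 0.23, whereas the sterol receptor gene Nr1h3 (LXR-alpha) fell by 0.59 (adjusted p = 0.000443). Sqle, an enzyme of cholesterol synthesis, was not called at 4 h (log2 0.03) and had log2 0.27 in untreated cells. The difference between conditions had an unadjusted p under 0.05 for 12 of the 29 genes and passed adjustment for 0, with 0.33 the smallest adjusted p.

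Glycolysis, stress and cell cycle lists had medians close to 0. Among all genes tested 6.35% fell and 6.22% rose. Of 22 glycolysis and hypoxia genes 1 fell, Pfkfb3 (log2 -0.27, adjusted p = 0.000121), and 0 rose. Of 17 stress response genes 4 fell and 0 rose, among them Herpud1 and Ppp1r15a at log2 -0.28 each and Atf4 at log2 -0.16. Of 21 cell cycle genes 1 fell, Mki67 (log2 -0.17, adjusted p = 0.00412), and 0 rose.

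Basophil and mast cell genes rose together. Of 11 tested, 8 rose and 0 fell, with a median log2 of 1.23 against -0.0021 over all genes, and the count stayed at 8 with any of the 6 libraries left out. Mcpt8, the basophil protease (chr14:56082164-56085197 in mm10, minus strand), was at 15.4, 15.2 and 14.4 CPM in KO and 4.01, 2.61 and 2.96 CPM in WT, a 4.70-fold difference (log2 2.24, SE 0.179, adjusted p = 6.29e-10). Prss34, another basophil protease, was at 36.2, 34.3 and 31.9 CPM in KO and 13.5, 11.5 and 11.5 CPM in WT (log2 1.49, SE 0.154, adjusted p = 8.72e-08). The lowest KO library was more than 2-fold above the highest WT library in both genes. Gata2, a lineage factor, was at 5.13, 4.81 and 5.24 CPM in KO and 2.21, 2.33 and 1.93 CPM in WT (log2 1.23). Cpa3, a granule carboxypeptidase, was at 10.2, 10.4 and 8.58 CPM in KO and 4.81, 4.14 and 3.83 CPM in WT.

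The other rises in that list were Fcer1a and Ms4a2, chains of the IgE receptor (log2 2.02 and 1.31), Cyp11a1 (log2 1.55) and Cd200r3 (log2 1.13). Kit (log2 -0.04), Hdc (log2 0.36, adjusted p = 0.191) and Gata1 (log2 0.20) were not called. Il4, Mcpt4, Cma1 and Tpsb2, with 13, 2, 1 and 0 counts, were not tested. The summed level of the list was 205 to 206 CPM in KO and 155 to 166 CPM in WT. The same list had 9 higher and 0 lower in untreated cells, with a median log2 of 1.37.

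Conventional dendritic cell markers were near balance. Of 12 type 1 markers 2 rose and 2 fell (1 rose with KO replicate 2 left out, and 1 fell with KO replicate 1 or WT replicate 1 left out), and their sum was 2927 to 2963 CPM in KO and 2923 to 2944 CPM in WT. Itgae, the integrin CD103, was at 31.4, 32.1 and 32.7 CPM in KO and 15, 14.3 and 16 CPM in WT (log2 1.08, adjusted p = 2.7e-09). Clec9a, a receptor for actin on dead cells, was at 113, 119 and 110.3 CPM in KO and 154, 145 and 148 CPM in WT (log2 -0.39, adjusted p = 5.49e-06). These markers of a shared cell type thus differed in opposite directions, and Batf3, its lineage factor, had log2 -0.08 (adjusted p = 0.62). Of 12 type 2 markers 2 rose and 1 fell, with sums of 2720 to 2791 CPM in KO and 2666 to 2716 CPM in WT. Mgl2, a lectin, was at 21.8, 22.5 and 19.7 CPM in KO and 14.6, 12.5 and 10.5 CPM in WT (log2 0.77, adjusted p = 3.41e-05).

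Monocyte and macrophage markers were lower in 4 of 17 and higher in 0, with sums of 6090 to 6315 CPM in KO and 6161 to 6612 CPM in WT. Ly6c2, a monocyte surface antigen that is also found on plasmacytoid cells, was at 45.1, 50.9 and 48.0 CPM in KO and 130.2, 128.5 and 128 CPM in WT (log2 -1.43, SE 0.081, adjusted p = 8.62e-13). Cd14, a coreceptor for lipopolysaccharide, was at 80, 74.3 and 78.2 CPM in KO and 108, 116 and 90.5 CPM in WT (log2 -0.44, adjusted p = 0.000125). Every KO library was below every WT library in both, which was a condition for naming Ly6c2. Csf1r (log2 0.01) and Lyz2 (log2 0.07) were not called. Of 13 neutrophil markers 4 fell, and 1 to 3 with single libraries left out; S100a9 (log2 -0.43) kept its call in each. Their sum was 150.4 to 152 CPM in KO and 177 to 191 CPM in WT. Of 12 T and natural killer cell markers 3 rose, with 1 called when WT replicate 3 was left out, and Cd3e was at or below 0.16 CPM in each library.

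B cell and plasma cell genes rose in 4 of 9 and fell in 0, with sums of 39.4 to 41.5 CPM in KO and 26.9 to 28.7 CPM in WT. Most of the gap between these sums was in Jchain. Jchain, which joins secreted antibody into polymers and is also made by plasmacytoid cells, was at 11.4, 12.6 and 14.9 CPM in KO and 4.08, 4.49 and 3.52 CPM in WT (log2 1.69, SE 0.129, adjusted p = 2.54e-10). Cd79a, a chain of the B cell receptor complex, rose by 0.60 on the log2 scale. With KO replicate 1, KO replicate 2, WT replicate 1 or WT replicate 2 left out, 2 of the 9 were called.

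Stromal genes rose in 8 of 17 and fell in 1 (median log2 0.46), and without WT replicate 3 they rose in 13 and fell in 0 (median log2 0.67). Col1a2, a chain of type I collagen, was at 401, 375 and 359.9 CPM in KO and 247, 242.5 and 248 CPM in WT (log2 0.62, adjusted p = 4.33e-06). Col1a1, its partner chain, was at 274, 261 and 236 CPM in KO and 158, 157 and 146 CPM in WT (log2 0.74, adjusted p = 6.39e-07). Acta2, smooth muscle actin, was at 121, 114 and 115 CPM in KO and 60.8, 64.2 and 53.9 CPM in WT (log2 0.97, adjusted p = 2.02e-06). These genes were separate between genotypes, which was a condition for naming Col1a2, and were not raised in WT replicate 3. The sum of the list was 1581 to 1709 CPM in KO and 1029 to 1232 CPM in WT. Untreated cells had 11 of the 17 higher and 0 lower (median log2 0.69), and at 30 min 12 were higher. Outside the list, and named by the size of their change, Fn1 and Actg2 rose. Fn1, fibronectin, was at 611, 594.5 and 547 CPM in KO and 341, 333 and 348 CPM in WT (log2 0.78, SE 0.0846, adjusted p = 1.88e-07). Actg2, a smooth muscle actin of the gut, was at 17.1, 15.7 and 15.4 CPM in KO and 7.25, 8.31 and 6.69 CPM in WT (log2 1.12, adjusted p = 3.75e-06).

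Endothelial genes rested on WT replicate 3. Of 12 tested, 1 rose and 6 fell (median log2 -0.72), and without that library 1 rose and 1 fell (median log2 -0.01). Their sum was 103 to 105 CPM in KO and 128 to 145 CPM in WT. The gap between the mean sums was no larger than that in Kdr alone, so the sums do not show a fall across the list. The genes that kept their calls were Vwf, von Willebrand factor, at 28.4, 27.4 and 24.7 CPM in KO and 19.5, 20.9 and 17.5 CPM in WT (log2 0.48, adjusted p = 1.14e-05), and Kdr. Kdr, the receptor for VEGF, was at 24.4, 25.2 and 25.4 CPM in KO and 58.7, 57.2 and 60.2 CPM in WT (log2 -1.23, adjusted p = 0.000257). Its log2 without WT replicate 3 was -1.21 (adjusted p = 0.00096). Ibsp, a bone matrix protein, was at 2.43, 2.48 and 2.10 CPM in KO and 4.29, 3.99 and 24.6 CPM in WT (log2 -2.25, adjusted p = 0.00913), and without WT replicate 3 it was not called (log2 -0.82, adjusted p = 0.376). Mmp12, the macrophage elastase, had log2 0.82 (adjusted p = 0.0106), and without WT replicate 3 log2 0.66 (adjusted p = 0.0678).

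Marker lists of other cell types thus moved with genotype, and their part in the differences of other genes was not tested. Among the largest rises outside any list was Mid1, a microtubule-associated ubiquitin ligase (chrX:169685199-169990797 in mm10, plus strand), at 14.2, 12.7 and 12.4 CPM in KO and 3.60, 3.52 and 3.80 CPM in WT (log2 1.85, SE 0.0739, adjusted p = 1.77e-16). It had the smallest adjusted p of the genes named here. Mamdc2 and F7, coagulation factor VII, rose by 1.13 and 1.09 on the log2 scale. Among the most abundant genes the differences were small: Actb, cytoplasmic actin, was at 5955, 5744 and 5908 CPM in KO and 6692, 6838 and 6571 CPM in WT (log2 -0.19, adjusted p = 0.00086).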

How the data were processed

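The deposited table held whole-number counts per gene for 30 libraries, which the authors made from TruSeq RNA v2 reads, a kit that does not keep strand. Per the submitters' processing notes, STAR 2.5, Subread with featureCounts 1.5.0-p1, DESeq2 and the build mm10 were used. Without strand, reads of a gene and of an overlapping antisense gene cannot be told apart.

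All 30 libraries were fitted in R 4.3.3 with edgeR 4.0.16 (filterByExpr, TMM, quasi-likelihood F test, 1 coefficient per group), and p-values were adjusted by Benjamini-Hochberg over 14808 genes. Each SE is the size of the log2 difference over the root of F. Interactions took the KO minus WT difference at 4 h minus that in untreated cells or at 30 min. Depth was 38680894 to 51642601 counts in the 6 libraries and 9734778 to 51642601 in all 30, with KO replicate 3 at 30 min of OVA the lowest. Replicates differed by more than sampling noise (chi-square per degree of freedom 2.45 to 7.38), so each was counted once.

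The members, the 31 gene lists (19 functional, 12 of cell types) and their rules were chosen with earlier results of these data known. Named genes were the 12 largest called changes each way with at least 5 CPM in the higher group, no overlap between libraries and a symbol that is unique and no clone name, the 4 largest CPM differences each way, up to 6 interaction genes, and up to 6 called genes per functional list or 4 per cell type list by smallest p. Some genes that this rule names are not reported here. Other list members were named after their values were seen. Alternatives were DESeq2 1.42.0, other scalings and filters, a replicate block, fits of fewer libraries and leaving out each library. Promoter windows (RefSeq, GRCm38.p6) were matched by gene ID for 11598 of 14808 genes. The replicate numbers of the labels were not used as pairs.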

Additional observations from a re-analysis of the deposited data

Results flagged for a closer look

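The KO minus WT difference at 4 h of OVA departed from that in untreated cells, by edgeR's quasi-likelihood test of the difference itself, for 6 genes. On the log2 scale the departure was -0.7436 for Mmp14 (adjusted p = 0.000149) and -1.741 for Ptges (adjusted p = 0.00821), both of which were higher in KO in untreated cells and lower at 4 h. It was -0.6798 for Rasgef1b (adjusted p = 0.00127), -0.3382 for Sod2 (adjusted p = 0.00266), -0.4232 for Ehd1 (adjusted p = 0.022) and -0.3446 for Sdc4 (adjusted p = 0.0342). Against the difference at 30 min of OVA, the departure was -0.5796 for Mmp14 and -1.774 for Ptges (adjusted p = 0.00904 for each). With KO replicate 2 at 4 h left out, 0 genes departed from 30 min. The departures from 30 min were not tested without KO replicate 3 at 30 min, the library of lowest depth.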

How the results depend on the processing

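The number of genes called at 4 h was 1617 to 2447 over the scalings, filters, tools and smaller fits, against 1861, and 1172 (without KO replicate 1) to 1709 (without WT replicate 3) with single libraries left out. The genes called higher numbered 532 to 858 in the latter fits, and those called lower 640 to 851. Under the stricter filter, at least 5 CPM in 3 libraries, 71 genes were called and at least 2-fold different, since genes of low level were not tested. In untreated cells, leaving out single libraries gave 898 (without KO replicate 1) to 1357 calls, and 984 without WT replicate 2. The count of genes whose 4 h difference departed from the untreated one was 11 with no filter on low counts, 10 with the stricter filter and 25 with DESeq2, and 3 (without untreated KO replicate 2) to 15 (without WT replicate 3 at 4 h) with single libraries left out. Against 30 min it was 22 with no filter, 40 with DESeq2, and 0 (without KO replicate 2 at 4 h) to 29 (without WT replicate 1 at 4 h) with single libraries left out; the cause was not tested. With the replicate number as a replicate block, 1892 genes were called in all libraries and 2036 in the 6 alone (2447 without it), and 7 and 2 genes had a departure from untreated cells and from 30 min. Deviations of libraries with the same number had r = -0.197, -0.191 and -0.151 between KO and WT at 4 h and -0.111, -0.0753 and -0.0252 between KO at 4 h and untreated KO. Between WT at 4 h and untreated WT they had r = 0.375, 0.112 and 0.256, and each WT library at 4 h correlated best with its own number, a hint from the data and not from the labels. Since this did not hold for KO, the numbers were not taken as pairs. Of 2086 comparisons over 150 named genes, 1953 kept their direction and side of the threshold, 133 in 33 genes no longer passed and 0 reversed. Most of these genes were named because they were called, so these counts are not independent of the calls. Of 434 list medians, 25 moved by more than the spread between replicates. The endothelial median was -0.08 under the stricter filter, -0.09 in the 6 libraries alone and -1.25 to -0.01 with single libraries left out.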

Other observations

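Of 33 genes tested within 1 Mb of Rubcn on chromosome 16, 4 were called at 4 h of OVA (12.1%, against 12.6% of all genes tested). Within 2 Mb 7 of 42 were called (16.7%), within 5 Mb 15 of 82 (18.3%) and within 10 Mb 23 of 117 (19.7%), 10 higher and 13 lower. No test of these shares was made. Among those 23 were Parp9, Dtx3l, Parp14 and Rtp4, genes known to be induced by interferon, which were named after their values were seen.

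Thbs4, a matrix glycoprotein in none of the lists and named after its values were seen, had 1.69, 1.59 and 1.61 CPM in KO against 0.274, 0.173 and 0.0556 CPM in WT at 4 h of OVA (edgeR log2 3.32, adjusted p = 6.84e-08). Its log2 in untreated cells was 5.16.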
